A study of Mus musculus with 9 samples.

Results

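A set of 10 genes that mark epithelial or mesenchymal identity was followed in tumour cells of 168FARN primary mammary tumours, namely Krt8, Krt18, Krt19, Epcam, Cdh1, Cdh2, Vim, Zeb1, Snai2 and Twist1. They were chosen by symbol, and all 10 were found among the 32286 features of the deposited table. Single-cell RNA sequencing (scRNA-seq) libraries came from whole-tumour suspensions, depleted of dead cells and debris on Percoll, of 3 WT, 3 Kmt2c KO and 3 Kmt2d KO tumours. The 168FARN line is a non-metastatic mouse mammary tumour line, grown here in the mammary fat pads (MFPs) of syngeneic female BALB/c mice. In all 3 groups the injected cells carried H2B–mCherry (H2BMc), whose transcript is counted in the table. Kmt2c and Kmt2d encode histone H3K4 methyltransferases, and each KO line was a sorted population made with pooled sgRNAs and transient Cas9, not a clone. The 3 tumours of a group therefore replicate the mouse and not the knockout. The tumours are called WT 1 to 3, Kmt2c KO 1 to 3 and Kmt2d KO 1 to 3, and these numbers only name libraries.

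Epithelial cells build a cytoskeleton of paired keratins, one type II keratin such as Krt8 with one type I keratin such as Krt18 or Krt19, and hold on to their neighbours through E-cadherin (Cdh1) and Epcam. Mesenchymal cells carry vimentin (Vim) filaments and often N-cadherin (Cdh2) in their place. Zeb1, Snai2 and Twist1 are transcription factors of the epithelial to mesenchymal transition, of which Zeb1 and Snai2 repress Cdh1 and other epithelial genes by binding E-box sequences in their promoters.

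The matrix held 585680611 unique molecular identifiers (UMIs) over 89147 barcodes, with 21529691 to 125617312 UMIs per library. The study's limits on genes per cell and mitochondrial counts kept 58645 cells, and 16707 of these held at least 1 H2BMc UMI and were taken as tumour cells. There were 361 to 925 of them in a WT library, 2244 to 3434 in a Kmt2c KO library and 1851 to 2817 in a Kmt2d KO library, and their UMIs summed to 9779795 to 47951145 per tumour. Of 56715 distinct barcode sequences among kept cells, 1889 occurred in more than 1 library. Transcripts of the targeted genes were not lost in the KO groups. Kmt2c was at 42.0 to 57.6 UMIs per 1000000 (CPM) in Kmt2c KO and 48.1 to 49.1 in WT tumours. Kmt2d was at 24.3 to 31.9 in Kmt2d KO, 21.8 to 31.1 in Kmt2c KO and 14.9 to 21.4 in WT tumours. Kmt2d thus did not overlap between WT and either KO group, but no test of it is given. The share of all genes whose groups do not overlap was not counted. Counts of the 5′ end of a transcript do not show small insertions or deletions, so these levels do not check the labels. Kmt2d KO 2 stood apart from Kmt2d KO 1 and 3 in several of the members below, and results that rest on it are given with and without it where the call changes. Its Col3a1 level in tumour cells, for example, was 11.96 CPM, against 64.1 and 65.1 in Kmt2d KO 1 and 3. Kmt2d KO 2 was singled out after these values were seen. An adjusted p without it therefore describes that fit and is not a test of the groups.

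Krt8 and Krt18 encode partner keratins that assemble together, and the genes are neighbours in the mouse genome. In GRCm38 (mm10) Krt8 lies at chr15:101996711-102004342 on the minus strand and Krt18 at chr15:102028216-102032026 on the plus strand, with 23873 bases between them. The promoters of Krt8 and Krt18 are shown because the 2 genes were counted at levels far apart in the tumour cells, and those of Epcam and Vim because they were counted near 0 and at the top of the range. Each is the 250 bases before the gene's start, 5′ to 3′ on the gene's strand, from RefSeq (GRCm38.p6). Capitals mark the E-box hexamer CACCTG or its reverse complement CAGGTG, the sequence bound by the Zeb and Snail families.
Krt8 promoter: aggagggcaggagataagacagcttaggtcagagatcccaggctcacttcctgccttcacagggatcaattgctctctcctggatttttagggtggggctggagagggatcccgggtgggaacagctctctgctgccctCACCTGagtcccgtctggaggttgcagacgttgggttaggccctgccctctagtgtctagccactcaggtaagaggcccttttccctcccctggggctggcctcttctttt
Krt18 promoter: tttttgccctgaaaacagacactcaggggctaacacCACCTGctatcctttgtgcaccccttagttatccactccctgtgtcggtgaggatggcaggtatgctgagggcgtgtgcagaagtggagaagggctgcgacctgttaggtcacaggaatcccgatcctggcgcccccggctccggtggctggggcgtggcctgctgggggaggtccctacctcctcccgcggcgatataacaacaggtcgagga
Epcam promoter: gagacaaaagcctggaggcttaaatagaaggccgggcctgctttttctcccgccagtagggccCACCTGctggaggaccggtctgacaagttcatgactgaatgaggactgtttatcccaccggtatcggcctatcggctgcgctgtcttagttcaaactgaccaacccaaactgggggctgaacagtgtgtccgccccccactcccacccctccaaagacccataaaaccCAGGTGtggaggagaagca
Vim promoter: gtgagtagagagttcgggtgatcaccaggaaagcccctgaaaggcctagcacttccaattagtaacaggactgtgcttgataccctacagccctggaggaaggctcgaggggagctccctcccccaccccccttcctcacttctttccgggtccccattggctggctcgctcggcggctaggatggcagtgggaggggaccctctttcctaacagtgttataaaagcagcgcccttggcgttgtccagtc

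These windows lie at chr15:102004343-102004592 for Krt8, chr15:102027966-102028215 for Krt18, chr17:87635729-87635978 for Epcam and chr2:13574061-13574310 for Vim. The hexamer began 111 bases before the start of Krt8 and 214 bases before that of Krt18, and Epcam held it at 187 and at 19 bases. Neither the Vim window nor that of Twist1 (chr12:33957421-33957670) held it. Of 32851 promoters of the same length, 17.2% held at least 1 copy. A match describes the letters in the window and is not evidence of binding, and the expressed Krt8 and the scarcely counted Krt18 held 1 copy each.

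Of the 5 epithelial members Krt8 alone was well counted in the tumour cells, beside Vim and the other mesenchymal members. Levels are given as CPM, the UMIs of a gene per 1000000 UMIs in the H2BMc-positive cells of a tumour, and since each molecule is counted 1 time at its 5′ end, they do not scale with gene length. Over all 9 tumours Vim was counted at 8769 CPM (2031603 UMIs), Krt8 at 381 (88369 UMIs), Twist1 at 286, Zeb1 at 70.6, Cdh2 at 39.2 and Snai2 at 2.01. The 4 other epithelial members were near 0. Krt18 was counted 31 times in 231692188 UMIs, which is 0.134 CPM (95% Poisson interval 0.0909 to 0.190). Cdh1 was counted 21 times, Krt19 7 times and Epcam 1 time. Krt8 was thus counted 2851 times as often as its partner Krt18. Without Kmt2d KO 2, which gave 14 of the 31 Krt18 UMIs, the ratio was 4653 and Krt18 was at 0.0845 CPM, below that interval. Intervals of this kind cover counting error only.

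**Figure D1:**
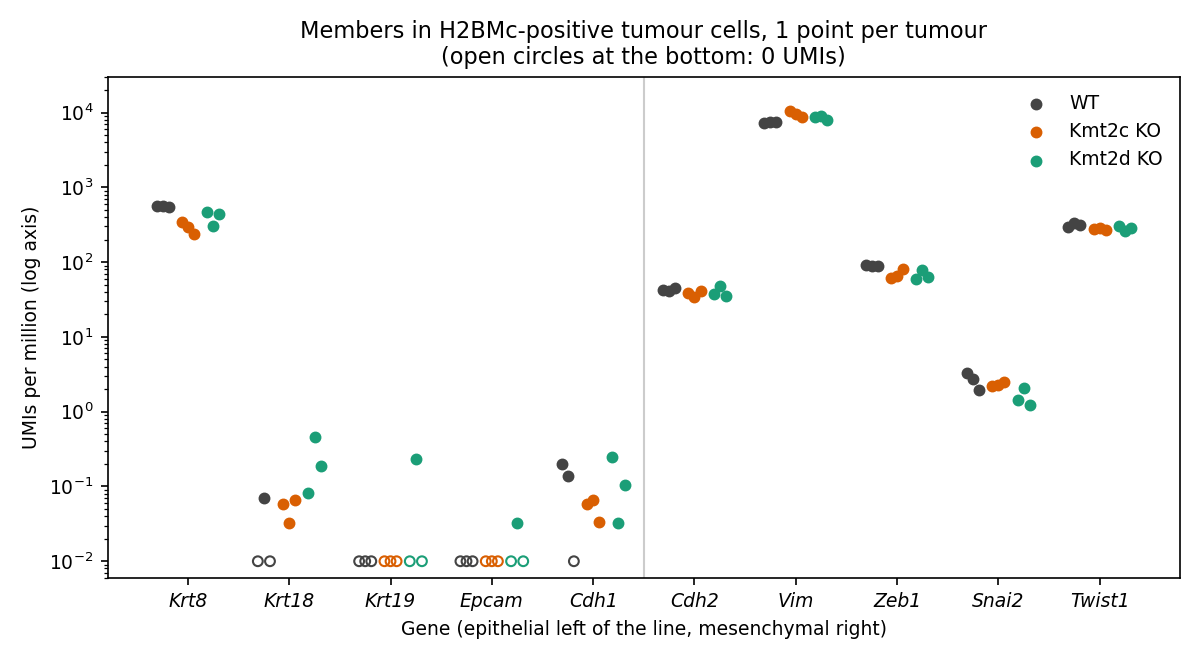
Level of each member in H2BMc-positive cells, in CPM on a log axis, with 1 point per tumour coloured by genotype and open circles for tumours with 0 UMIs. Krt8 lay between 235 and 569 in the 9 tumours, whereas Krt18, Krt19, Epcam and Cdh1 stayed below 0.5, and Vim lay above all other members in every tumour.

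The scarce epithelial members were scarce in every group. Krt18 was counted 0, 1 and 0 times in WT 1 to 3, 2, 1 and 2 times in Kmt2c KO 1 to 3, and 2, 14 and 9 times in Kmt2d KO 1 to 3. The highest of these counts, in Kmt2d KO 2, came to 0.459 CPM. All 7 Krt19 UMIs and the single Epcam UMI also came from Kmt2d KO 2, and the other 8 tumours had none. The limit that a count of 0 allows (3 counts) was 0.0626 to 0.307 CPM in these 8 tumours. Cdh1, the adherens junction cadherin, was counted 2, 2 and 0 times in the WT tumours, 2, 2 and 1 times in the Kmt2c KO tumours and 6, 1 and 5 times in the Kmt2d KO tumours. In H2BMc-positive cells none of these 4 genes passed the filter on low counts, so 6 of the 10 members were tested and the 4 were not.

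Over all kept cells there were 86 Krt18, 27 Krt19, 68 Epcam and 181 Cdh1 UMIs, of which 55, 20, 67 and 160 lay outside the tumour cells. In the 986 macrophage-gated cells Cdh1 was at 6.12 CPM (27 UMIs, 95% Poisson interval 4.03 to 8.91) and Epcam at 4.54 (20 UMIs, 2.77 to 7.004), both above their levels in the tumour cells. These intervals cover counting error in pooled cells only, and tumours differed widely. Epcam in these cells was at 5.15 to 8.14 CPM in WT, 0 to 2.11 in Kmt2c KO and 0 to 51.6 in Kmt2d KO tumours. Cdh1 was at 8.14 to 25.8, 0 to 1.13 and 1.32 to 47.3. A cell of WT 1 with no H2BMc UMI held 20 Krt18, 21 Krt8, 7 Krt19, 7 Epcam and 1 Cdh1 UMIs with 2 Vim UMIs and no Zeb1 or Twist1 UMI, among 7369 UMIs in all. It was singled out after its values were seen. In all, 11 kept cells held UMIs of at least 2 of Krt18, Krt19, Epcam and Cdh1, and 1 of them held H2BMc.

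Krt8 was nearly alone among keratins. Of the 53 keratin genes in the table, 4 reached 1 CPM in the tumour cells, and Krt8 took 94.8% of all keratin UMIs. Krt10, a type I keratin of differentiating epidermis, followed with 3.49% (14.0 CPM), then Krt80 with 1.09% and Krt20 with 0.310%. Krt7, the other simple-epithelial type II keratin, was counted 13 times and Krt17 7 times, both named after their values were seen.

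Krt8 and Vim were found in the same cells. Each cell was thinned to 2000 UMIs so that cells of different depth could be compared, which left 16215 of the 16707 cells (1723 WT, 8150 Kmt2c KO and 6342 Kmt2d KO). Vim was detected in 99.7% of the thinned cells and Krt8 in 41.8%. A UMI of both was held by 41.8% of cells, and 0.0370% of cells held Krt8 without Vim. With Vim in nearly every cell, the share with both follows from the share with Krt8. Without thinning, 79.9% of cells held both and 20.0% held Vim alone. Epcam was detected in 0 of the 16215 thinned cells, which allows a share of cells with a UMI, not of cells expressing the gene, of up to 0.0185%, Krt18 in 4, Krt19 in 2 and Cdh1 in 2.

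By genotype, Krt8 was detected in 55.8, 56.8 and 60.2% of thinned cells in WT 1 to 3, in 41.6, 36.1 and 29.0% in Kmt2c KO 1 to 3, and in 47.6, 37.3 and 48.0% in Kmt2d KO 1 to 3. The means were 57.6% ± 2.34 (SD, n = 3) in WT against 35.6% ± 6.27 in Kmt2c KO and 44.3% ± 6.07 in Kmt2d KO. The WT tumours lay above all 6 KO tumours, and Kmt2d KO 2 lay among the Kmt2c KO tumours. Unthinned means were 93.8% in WT against 74.7% in Kmt2c KO and 82.6% in Kmt2d KO. Median depth differed in the same direction, with 13729 to 24081 UMIs per H2BMc-positive cell in WT against 8661 to 11824 in Kmt2c KO and 11222 to 14789 in Kmt2d KO libraries, which is why the thinned shares are given first. The shares are given as a description and were not tested.

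Cells of other types, gated by markers and without H2BMc, also held some Krt8. Endothelial cells were gated by at least 2 of 6 endothelial markers and no H2BMc (463 cells, median 4694 UMIs against 11694 in the tumour cells). After thinning, Krt8 was detected in 4.55% of 374 endothelial-gated cells (exact 95% binomial interval 2.67 to 7.18%), in 0.719% of those in WT against 6.93% in Kmt2c KO and 6.72% in Kmt2d KO. The shares in tumour cells were higher in each group. Unthinned, Twist1 was detected in 69.6% of the endothelial-gated cells with Krt8 and in 4.56% of those without it, and Cdh2 in 37.0% and 1.68%. Unthinned, deeper cells hold more UMIs of every gene. In the thinned cells the shares were 29.4% and 5.60% for Twist1 and 23.5% and 1.40% for Cdh2, with few cells that held Krt8. Macrophage-gated cells (986 cells, median 2746 UMIs) held more, with Krt8 at 158 CPM ± 49.7 (SD, n = 3) in WT against 174 ± 93.3 in Kmt2c KO and 143 ± 14.0 in Kmt2d KO. After thinning Krt8 was detected in 13.9% of 631 macrophage-gated cells (11.3 to 16.9%), in 8.55% of those in WT and in 14.6% and 16.1% of those in Kmt2c KO and Kmt2d KO. Thinned mural-gated and T cell-gated cells held it in 3.41% of 88 and 6.02% of 83. Free RNA, doublets and gated tumour cells were not tested as sources of these Krt8 UMIs.

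Cells with and without a Krt8 UMI both carried the mesenchymal factors. Among thinned cells with Krt8, Twist1 was detected in 42.3% ± 3.60 (SD, n = 3) in WT against 40.1% ± 0.967 in Kmt2c KO and 40.2% ± 3.33 in Kmt2d KO. Among thinned cells without Krt8 it was detected in 43.5% ± 2.33, 42.1% ± 2.48 and 39.4% ± 1.33. Zeb1 was detected in 15.3% ± 2.61 of Krt8-positive and 22.6% ± 3.19 of Krt8-negative WT cells, with 12.3% ± 1.10 against 15.1% ± 1.68 in Kmt2c KO and 12.7% ± 3.01 against 15.5% ± 1.03 in Kmt2d KO. In Twist1 the Krt8-positive mean was the lower in WT and Kmt2c KO and the higher in Kmt2d KO at this depth. At 4000 UMIs it was higher in Kmt2d KO (66.1% ± 2.62 against 62.2% ± 1.56) and WT (67.0% ± 3.01 against 62.0% ± 4.86). In Kmt2c KO it was not (63.4% ± 2.33 against 63.8% ± 1.92). In Zeb1 the Krt8-positive mean was the lower in each group. Both kinds of cell come from the same tumours, and these SDs are spreads between tumours, not of the difference within a tumour. These comparisons depended on depth. Unthinned, Twist1 was detected in 94.1% of Krt8-positive against 72.0% of Krt8-negative cells in WT, 89.9% against 74.8% in Kmt2c KO and 91.5% against 64.8% in Kmt2d KO. Zeb1 unthinned was also higher in Krt8-positive cells, with 75.7% against 63.4% in WT, 50.2% against 44.8% in Kmt2c KO and 58.4% against 44.2% in Kmt2d KO. These shares are descriptions, since cells of a tumour are not replicates.

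Loss of Kmt2c went with less Krt8 and more Vim. Krt8 was counted at 569, 564 and 550 CPM in WT 1 to 3, at 339, 298 and 235 in Kmt2c KO 1 to 3, and at 466, 304 and 434 in Kmt2d KO 1 to 3. The WT tumours lay above all KO tumours, with no overlap. The share of all genes whose groups do not overlap was not counted, here or for the genes below. Summed UMI counts per tumour were compared with edgeR's quasi-likelihood test, in which a gene was called below an adjusted p (Benjamini–Hochberg) of 0.05. Krt8 fell in the Kmt2c KO tumours relative to WT, with a log2 fold change of -0.94 (SE 0.18, adjusted p = 0.00648), or 1.92-fold lower. Against WT, Kmt2d KO gave a log2 fold change of -0.51 (SE 0.18, adjusted p = 0.173), which did not pass, nor did the -0.34 (SE 0.14, adjusted p = 0.188) without Kmt2d KO 2. Krt8 was higher in Kmt2d KO than in Kmt2c KO tumours by 0.43 (SE 0.18, adjusted p = 0.235), which did not pass. Without Kmt2d KO 2 the difference was 0.60 (SE 0.14, adjusted p = 0.00918), in a fit that called 19.7% of all genes. Kmt2d KO 2 was left out after its values were seen, so this p describes that fit and does not test the groups. No member was called in this comparison when any other tumour was left out.

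Of the 6 members tested in Kmt2c KO against WT, 3 were called, beside 18.7% of all 14089 genes tested (1348 higher and 1292 lower in Kmt2c KO). Apart from Krt8, these were Vim and Zeb1. Vim, the intermediate filament protein of mesenchymal cells, was counted at 7229, 7375 and 7485 CPM in WT 1 to 3, at 10374, 9493 and 8735 in Kmt2c KO 1 to 3, and at 8612, 9124 and 8044 in Kmt2d KO 1 to 3. Each KO tumour lay above the WT tumours. Vim rose in Kmt2c KO by a log2 fold change of 0.37 (SE 0.10, adjusted p = 0.0247). It lost this call without Kmt2c KO 1 (adjusted p = 0.0604), Kmt2c KO 2 (0.0661), WT 1 (0.0916), WT 2 (0.0676) or WT 3 (0.0572), while the log2 fold change stayed between 0.32 and 0.41. With all ungated cells, whether or not they held H2BMc, the log2 fold change was 0.30 and the call was also lost (adjusted p = 0.0979). For Kmt2d KO the value against WT was 0.19 (SE 0.10, adjusted p = 0.351), and 0.16 (SE 0.11, adjusted p = 0.442) without Kmt2d KO 2.

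**Figure D2:**
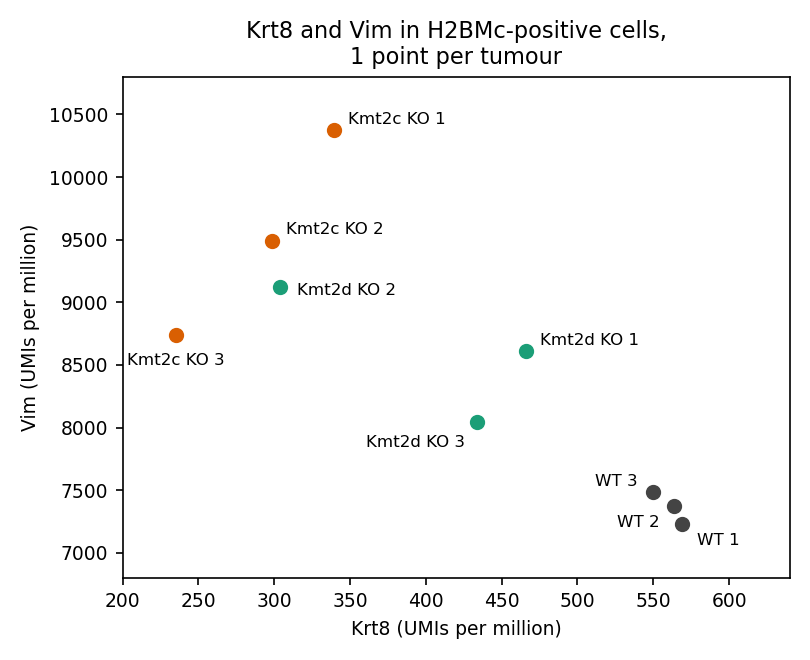
Krt8 (horizontal) against Vim (vertical) in H2BMc-positive cells, in CPM, with 1 labelled point per tumour; neither axis starts at 0. The 3 WT tumours lie together at high Krt8 and low Vim, the Kmt2c KO tumours at low Krt8 and higher Vim, and Kmt2d KO 2 beside the Kmt2c KO tumours rather than beside Kmt2d KO 1 and 3.

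The ratio of Vim to Krt8 UMIs was lowest in the WT tumours. It was 12.7, 13.1 and 13.6 in WT 1 to 3, 18.5, 30.0 and 18.5 in Kmt2d KO 1 to 3, and 30.6, 31.8 and 37.1 in Kmt2c KO 1 to 3. The 3 groups did not overlap in this ratio, with Kmt2d KO 2 (30.0) just under the lowest Kmt2c KO tumour (30.6), whereas the 2 KO groups overlapped in Krt8 and in Vim taken alone. The ratio was not planned and was not tested. It divides 2 genes that moved in opposite directions in these tumours, which by itself widens the distance between groups.

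Zeb1 moved against the direction of Vim. This repressor of epithelial genes was counted at 90.7, 89.3 and 87.6 CPM in WT 1 to 3, at 61.2, 65.3 and 79.8 in Kmt2c KO 1 to 3, and at 59.6, 77.9 and 62.6 in Kmt2d KO 1 to 3. All KO tumours lay below the WT tumours. Zeb1 fell in Kmt2c KO by 0.38 on the log2 scale (SE 0.11, adjusted p = 0.0366). The call was lost without Kmt2c KO 1 (adjusted p = 0.137), Kmt2c KO 2 (0.124), WT 1 (0.0942), WT 2 (0.121) or WT 3 (0.113), with total UMI counts only (0.0565), without the low-count filter (0.0520) and with all ungated cells (0.0749). In cells that met no stromal or immune marker gate the log2 fold change was -0.23 (adjusted p = 0.212). Kmt2d KO tumours gave -0.45 against WT (SE 0.11, adjusted p = 0.0672). Without Kmt2d KO 2, left out after its values were seen, the value was -0.57 (SE 0.10, adjusted p = 0.00454). That fit called 5.79% of all genes and does not test the groups.

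The other factors and N-cadherin passed no test between genotypes over all 9 tumours. Twist1, a basic helix-loop-helix factor, was counted at 294, 330 and 310 CPM in WT against 278, 287 and 270 in Kmt2c KO and 303, 264 and 285 in Kmt2d KO tumours. Its log2 fold changes against WT were -0.16 (SE 0.09) in either KO (adjusted p = 0.245 and 0.409). The Kmt2c KO tumours lay below the WT tumours in Twist1 without overlap, although the difference was not called. Cdh2 was counted at 40.5 to 44.8 CPM in WT against 34.5 to 41.1 in Kmt2c KO and 35.0 to 48.4 in Kmt2d KO tumours, so that the groups overlapped. Snai2, the zinc-finger factor Slug, was the lowest of the mesenchymal members, at 3.30, 2.71 and 1.94 CPM in WT against 2.17, 2.30 and 2.46 in Kmt2c KO and 1.43, 2.06 and 1.21 in Kmt2d KO tumours. Its log2 fold change was -0.20 (SE 0.25, adjusted p = 0.605) in Kmt2c KO and -0.80 (SE 0.26, adjusted p = 0.145) in Kmt2d KO against WT. Without Kmt2d KO 2 the latter was -1.05 (SE 0.24, adjusted p = 0.0252), and Snai2 was lower in Kmt2d KO than in Kmt2c KO by a log2 fold change of -0.85 (SE 0.22, adjusted p = 0.0183). The fit without Kmt2d KO 2 called 5.79% of all genes against WT and 19.7% against Kmt2c KO. That tumour was left out after its values were seen, so these p values do not test the groups.

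**Figure D3:**
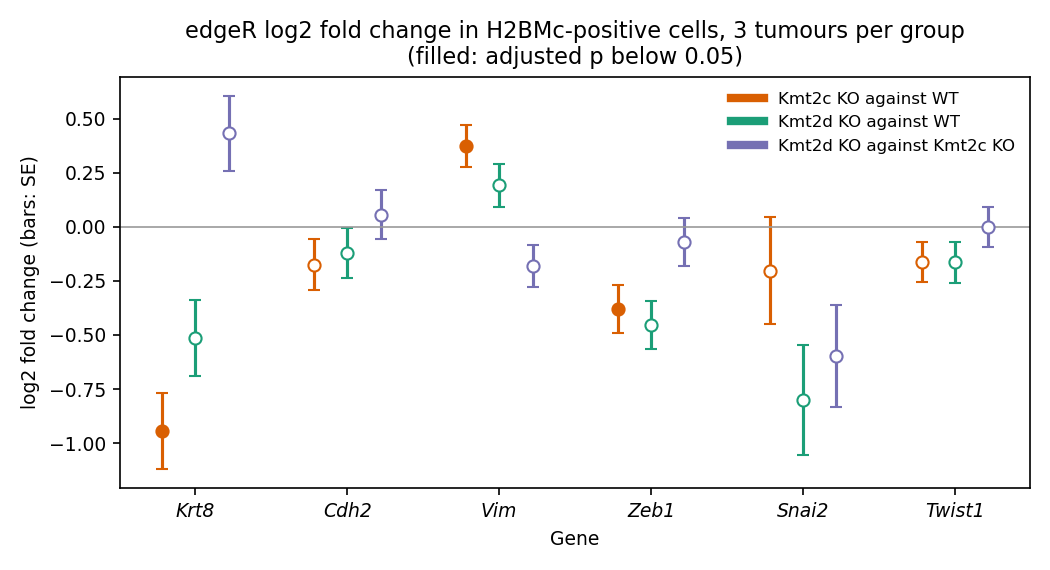
edgeR log2 fold change (vertical axis, bars show the SE) of the 6 members tested, in 3 comparisons of 3 tumours per group, with filled points for an adjusted p below 0.05. Filled points are Krt8 (-0.94), Vim (0.37) and Zeb1 (-0.38) in Kmt2c KO against WT.

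None of the 6 tested members was called by edgeR in Kmt2d KO against WT, beside 2.27% of all genes tested. At an unadjusted p under 0.05 there were 3 of them (Krt8, Zeb1 and Snai2), beside 2412 of all 14089 genes. DESeq2 called 1 (Zeb1, log2 fold change -0.45, adjusted p = 0.0107), beside 703 of all genes. Nor was any called by edgeR in Kmt2d KO against Kmt2c KO, beside 0.0781% of all genes. In that comparison 2 were at an unadjusted p under 0.05 (Krt8 and Snai2), beside 2506 of all 14089 genes. DESeq2 called none of them there, beside 577 of all genes. All comparisons share tumours, so they are not independent of each other. Leaving Kmt2d KO 2 out raised the genes called from 320 to 823 in Kmt2d KO against WT and from 11 to 2797 in Kmt2d KO against Kmt2c KO.

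Other measures were also read by group. The endothelial, macrophage and fibroblast marker sums overlapped between groups, whereas H2BMc was higher in each Kmt2c KO tumour than in any other tumour. H2BMc itself, the gate, was at 72.7 to 113 CPM in WT against 142 to 153 in Kmt2c KO and 90.6 to 117 in Kmt2d KO tumour cells. Among the gate markers of other cell types, the 6 endothelial markers summed to 3.90 to 12.6 CPM in WT against 11.2 to 16.3 in Kmt2c KO and 6.21 to 19.7 in Kmt2d KO tumour cells. The 6 macrophage markers summed to 4.499 to 14.6, 10.7 to 25.8 and 5.401 to 19.1, the 6 mural markers to at most 5.45 and the 5 T cell markers to at most 1.15, with 3 mural and 2 T cell markers at 0 in WT. The 8 fibroblast markers summed to 295 to 409 CPM in WT against 249 to 330 in Kmt2c KO and 212 to 449 in Kmt2d KO tumour cells, with none at 0. The part of these in the results on Krt8, Vim and Zeb1 was not tested. All 3 calls in Kmt2c KO against WT were also made in tumour cells with at least 2 H2BMc UMIs, beside 2225 of 12539 genes. In cells that met no stromal or immune gate, and in cells that met no endothelial, macrophage, mural or T cell gate, Krt8 and Vim were called and Zeb1 was not (adjusted p = 0.212 and 0.0532). These 2 fits called 2913 of 13634 and 2649 of 13998 genes. Fewer cells with a transcript and less of it per cell cannot be told apart in such sums.

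The wider lists, chosen with earlier results of these data known, showed levels of the same kind. Of 47 further epithelial genes, 41 were below 1 CPM in the tumour cells, 4 of them at 0, and the list's median was 0.0345. Those above 10 were Tjp1 (a tight junction scaffold, 120), Itgb4 (integrin β4, 54.2), Pkp3 (a desmosomal plakophilin, 20.8), Itga6 (16.2) and Gata3 (13.6). Of 46 further mesenchymal genes, 12 were below 1 CPM, 31 at 10 or more and 14 at 100 or more, with a median of 33.7. Fibronectin (Fn1, 3351), S100a4 (3123) and Sparc (863) led them. These genes were named for their levels after the values were seen, as were some typical mesenchymal genes near 0, namely Acta2 (0.259 CPM), Tagln (0.0820), Postn (0.358) and Thy1 (0.293). For comparison, 26.9% of all 32286 features were at 10 or more and 62.7% below 1.

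**Figure D4:**
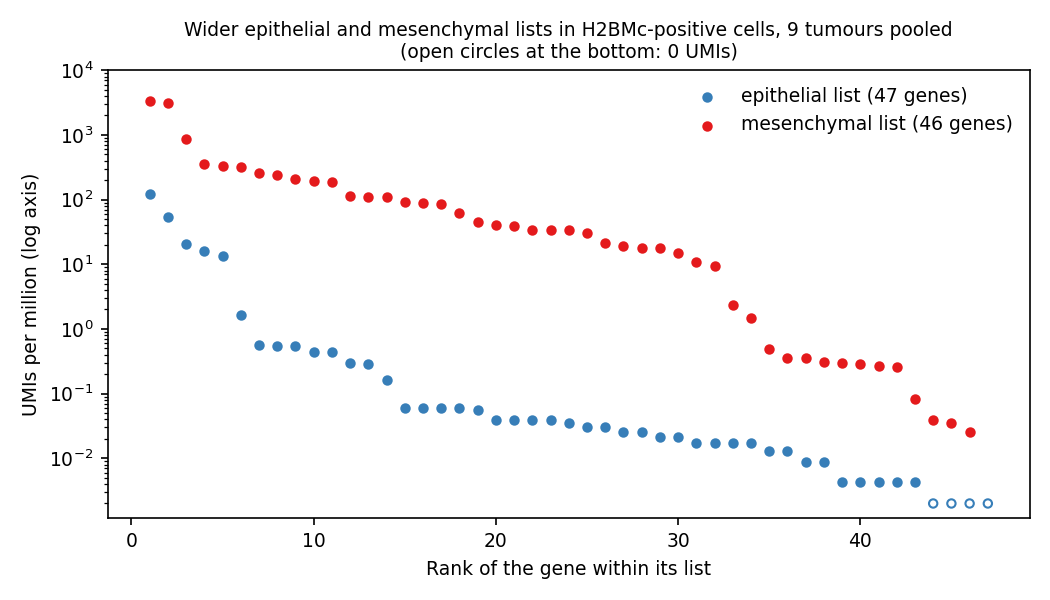
Levels of the 47 further epithelial and 46 further mesenchymal genes in H2BMc-positive cells of all 9 tumours together, in CPM on a log axis, ranked within each list, with open circles for genes at 0 UMIs. Most mesenchymal genes lie above 10 and most epithelial genes below 1.

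Between genotypes the wider lists moved in both directions. In Kmt2c KO against WT, 2 of the 13 epithelial genes tested were higher and 1 lower, and the median log2 fold change was 0.21, beside 0.00 for all genes. Gata3, a luminal transcription factor, rose by 0.62 (SE 0.14, adjusted p = 0.0146) and the laminin receptor subunit Itga6 by 0.61 (SE 0.12, adjusted p = 0.00693), while Tjp1 fell by 0.42 on the log2 scale (SE 0.10, adjusted p = 0.0170). Of 41 mesenchymal genes tested, 8 were higher and 6 lower, with a median of 0.16, and of all genes tested 18.7% were called. The matrix genes Fbn1 (log2 fold change 1.96, SE 0.43) and Tnc (1.94, SE 0.28) and the protease gene Mmp2 (1.22, SE 0.33) rose most, with adjusted p of 0.0127, 0.00210 and 0.0271. The fibrillar collagens Col3a1 (-3.56, SE 0.52) and Col5a2 (-2.70, SE 0.35) and the TGFβ receptor Tgfbr2 (-1.13, SE 0.13) fell most, with adjusted p of 0.00203, 0.00113 and 0.000666. In the fits that left out a tumour, Tjp1 lost its call without Kmt2c KO 1, Kmt2c KO 2, WT 1 or WT 2 (adjusted p up to 0.0809), Gata3 without Kmt2c KO 3, WT 1 or WT 3 (up to 0.0598), Mmp2 without Kmt2c KO 2, Kmt2c KO 3 or any of the WT tumours (up to 0.0925) and Fbn1 without WT 2 or WT 3 (up to 0.0634). Without Kmt2d KO 2, which shares the estimate of spread, 16 mesenchymal genes were higher and 9 lower in Kmt2c KO against WT, and 4 epithelial genes were higher and 2 lower, where 29.1% of all genes were called. Col3a1 was counted at 99.1 to 146 CPM in WT and 8.78 to 11.7 in Kmt2c KO tumour cells.

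None of the 13 epithelial genes was called in Kmt2d KO against WT, with a median of 0.02, beside 2.27% of all genes. Of the 41 mesenchymal genes, 1 was higher (Twist2, 0.51, SE 0.10, adjusted p = 0.0218) and 2 were lower (Col5a2, -1.45, SE 0.33, adjusted p = 0.0491, and Tgfbr2, -0.93, SE 0.13, adjusted p = 0.00512). Twist2 was also called higher in Kmt2c KO against WT (0.864, SE 0.0955, adjusted p = 0.000579). Mylk, a kinase of contractile cells, was higher in Kmt2d KO than in Kmt2c KO by 0.86 (SE 0.12, adjusted p = 0.0468), the only gene of either list called there. The Col5a2 call was kept only without Kmt2d KO 2 among the 9 fits that left out a tumour (adjusted p up to 0.185 in the others), and that of Mylk only without Kmt2c KO 1 or Kmt2d KO 2 (up to 0.229). The Twist2 call in Kmt2d KO against WT was lost without Kmt2d KO 3 (adjusted p = 0.0561), WT 1 (0.0988), WT 2 (0.0901) or WT 3 (0.103). Without Kmt2d KO 2, 2 mesenchymal genes were higher and 4 lower in Kmt2d KO against WT, and against Kmt2c KO 7 were higher and 10 lower, with 2 epithelial genes lower. Of all genes, 5.79% and 19.7% were called in these 2 fits.

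Across the 9 tumours the genes whose log2 level in tumour cells was most like that of Krt8 were Hdac3 (Pearson r = 0.989), Cox6c (0.986) and Lamtor2 (0.986), out of 8659 genes at a mean of at least 10 CPM. For Vim these were Mgrn1 (0.972), Edf1 (0.963) and Iffo2 (0.959). The tumours fall into genotype groups of unequal depth, so these values describe the tumours only.

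Fibroblasts, the mesenchymal cells of the stroma, were meant as the reference for the mesenchymal end. The gate of at least 3 of 8 fibroblast markers and no H2BMc UMI took 4970 cells, 115 to 1290 per tumour. It did not separate fibroblasts from tumour cells. Krt8 was detected in 73.5% of the gated cells before thinning, and the same marker count was met by 20.3% of H2BMc-positive cells, with 33.3% in WT against 12.8% in Kmt2c KO and 26.1% in Kmt2d KO. The tumour cells carried several of these markers themselves, such as Clec3b (130 CPM), Pdgfra (76.6) and Lum (52.0), while Col14a1 was near 0 (0.121).

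With the tumour as a block, H2BMc-positive cells and these gated cells were compared in all 9 tumours. Of the 6 members tested 4 were called, beside 55.3% of the 12079 genes tested. Krt8 was higher in H2BMc-positive cells by a log2 fold change of 0.56 (SE 0.05, adjusted p = 2.71e-07) and Vim by 0.53 (SE 0.04, adjusted p = 1.94e-08). Zeb1 was lower, with -0.53 (SE 0.05, adjusted p = 2.14e-07), as was Snai2 with -0.58 (SE 0.16, adjusted p = 0.00497). Twist1 (0.07, SE 0.03, adjusted p = 0.0505) and Cdh2 (-0.07, SE 0.04, adjusted p = 0.142) did not pass. Across the alternatives 3 to 6 members were called, beside 3115 to 7090 genes of 9778 to 24066 tested. The 6 came with a gate of at least 2 markers, beside 6299 of 12880 genes. Twist1 passed with a gate of at least 2 or 4 markers (adjusted p = 0.00345 and 0.0489), with at least 2 H2BMc UMIs (0.00621), without the low-count filter (0.00739) and without Kmt2d KO 3 (0.01799). Cdh2 passed with the 2-marker gate (0.00411) and with total UMI counts only (0.0083), and Snai2 lost its call without the block (0.0845). These differences are between tumour cells and a mixture that holds many cells with Krt8, and are not a measure of fibroblasts.

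A stricter gate, added after the values were seen, also asked for at least 1 Thy1 and 2 Col1a1 UMIs. It took 96 cells, and 3 of the 16707 H2BMc-positive cells (0.0180%) met its marker counts. In these fibroblasts Col3a1, which the gate did not use, was at 15811 CPM, against 44.9 in the tumour cells. Col1a1 was at 13928 against 10.7, but the gate asked for it. Krt8 was at 20.6 (14 UMIs, 95% Poisson interval 11.3 to 34.6) against 381 in the tumour cells, a ratio of 18.5. All of its UMIs lay in 3.125% of the 96 cells, so this level and ratio rest on few cells. Vim was at 4232 (4078 to 4389) against 8769, Zeb1 at 150 (123 to 182) against 70.6, Snai2 at 17.7 (9.14 to 30.9) against 2.01, Cdh2 at 17.7 (9.14 to 30.9) against 39.2, and Twist1 at 255 (218 to 296) against 286. These intervals cover counting error in pooled cells and not the spread between tumours. Krt18, Epcam and Cdh1 had 0 UMIs in the 96 cells, which allows up to 4.42 CPM, and Krt19 had 2. No test was made, because the gate was added with these values in view and most tumours gave few cells, 1 to 30 each.

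**Figure D5:**
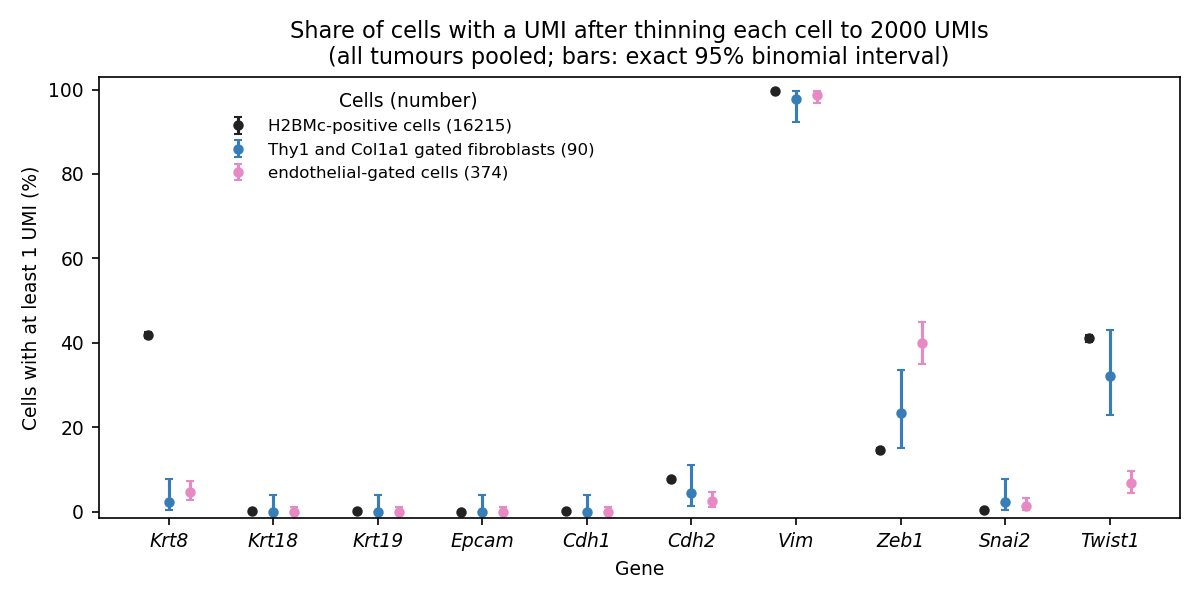
Percentage of cells with at least 1 UMI of each member after thinning to 2000 UMIs, for H2BMc-positive cells, fibroblasts of the stricter gate and endothelial-gated cells of all tumours pooled, with exact 95% binomial intervals. Krt8 was detected in 41.8% of tumour cells against 2.22% and 4.55%, Vim in at least 97.8% of each class, and Krt18, Krt19, Epcam and Cdh1 in almost no cell of any class.

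After thinning, Krt8 was detected in 2 of 90 such fibroblasts (2.22%, exact 95% binomial interval 0.270 to 7.80%), a share no higher than the 4.55% in endothelial-gated cells. These intervals cover counting error in pooled cells and not the spread between tumours, and the classes mix the tumours differently. Of the 90 fibroblasts, 27 came from Kmt2d KO 1 and 1 from WT 2. Cdh2 was detected in 4.44% of the fibroblasts (1.22 to 10.99%) against 7.60% of tumour cells, and Snai2 in 2.22% (0.270 to 7.80%) against 0.389%. For both genes the tumour-cell share lay within the fibroblast interval. Zeb1 was detected in 23.3% of them (15.1 to 33.4%) against 14.5% of tumour cells (13.9 to 15.02%), and in 39.8% of endothelial-gated cells. Twist1 was detected in 32.2% (22.8 to 42.9%) of the fibroblasts, 41.03% of tumour cells and 6.68% of endothelial-gated cells. Its tumour-cell share also lay within the fibroblast interval. In macrophage-gated cells Twist1 was detected in 15.2% and Zeb1 in 11.9%, and in mural-gated cells in 37.5% and 23.9%.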

How the data were processed

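Libraries were made by the authors from whole-tumour suspensions, after Percoll removal of dead cells and debris, with 10x 5′ chemistry, and per the labels counts came from Cell Ranger 7.0.1 on mm10. The deposited matrix holds raw UMI counts per gene and barcode, and the sources used here do not say whether aggregation thinned libraries to a common depth. A barcode's suffix gave its library. Genotypes came from letters in the deposited aggregation table, where C stood for Kmt2c KO, D for Kmt2d KO and X for WT, as inferred from how the study named its own comparisons.

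Cells with more than 500 and fewer than 7500 genes and under 15% mitochondrial counts were kept. No doublet caller was run, and leaving out the 5% of cells with most UMIs is among the alternatives. UMI counts of cells with at least 1 H2BMc UMI were summed per tumour and tested with edgeR 4.0.16 (filterByExpr, TMM, quasi-likelihood test, all 9 tumours, genotype as the only term, Benjamini–Hochberg over all genes, threshold 0.05). DESeq2 1.42.0 was an alternative. Each SE is the absolute log2 fold change over the square root of F. Against gated fibroblasts the tumour was a block, with at least 20 gated cells per tumour. Shares used cells thinned to 2000 UMIs (seed 1), with exact binomial and Poisson intervals. The Kmt2c KO against WT fit was run on simulated counts. It recovered 70% of 100 genes changed 2-fold and 93% of 100 genes changed 4-fold, and also called 15 unchanged genes. Smaller changes, such as those of Vim and Zeb1, were not simulated.

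Tumours of a group differed by more than sampling noise (at least 4.18 chi-square per degree of freedom in 9 pairs). Nothing ties a library to a replicate number of the labels. The members, the wider lists and the gates were chosen with earlier results of these data known. Named were all 10 members, for each wider list and comparison at most the 3 called genes with the largest rise and fall, and the 3 genes most like Krt8 and Vim over tumours; other names were chosen after their values were seen, as was the stricter fibroblast gate. The study had itself used Krt8 beside H2BMc to find its tumour cells, whereas the gate here used H2BMc alone. Promoters were matched by symbol to RefSeq, which gave 5 of the 10.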

Additional observations from a re-analysis of the deposited data

Results flagged for a closer look

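A signal appeared outside the tumour-cell comparisons in a single H2BMc-negative cell of WT 1, which held 20 Krt18 UMIs, where all 16707 H2BMc-positive cells together held 31. Its Epcam and Krt19 counts were 7 each. No control sample measures this background.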

How the results depend on the processing

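No paired analysis was possible because nothing ties a library to a replicate number of the labels. Krt8 in Kmt2c KO against WT kept its direction and its call under all 22 alternatives (log2 fold change -1.05 to -0.79, adjusted p at most 0.0282). Vim kept its direction in all 22 and its call in 16, with adjusted p up to 0.0979, and Zeb1 its direction in 22 and its call in 12, with adjusted p up to 0.212. With all ungated cells, 1 of 8 members tested was called in Kmt2c KO against WT, beside 2244 of 15636 genes. With a tumour left out 1 to 3 members were called, beside 1256 to 4140 of 14191 to 14446 genes. For Kmt2d KO against WT, 1 member was called by DESeq2, beside 703 of 14089 genes, and 1 with at least 2 H2BMc UMIs, beside 209 of 12539. With a tumour left out 0 to 2 were called there, beside 98 to 823 genes. Against Kmt2c KO this was 0 to 2, beside 0 to 2797 genes, the 2 without Kmt2d KO 2.

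Over all genes, calls in Kmt2c KO against WT came to 887 with thinned cells and 1256 to 4140 with a tumour left out, against 2640. For Kmt2d KO against WT they came to 703 by DESeq2, 516 with no low-count filter, 177 with only the 2 groups compared, 209 with at least 2 H2BMc UMIs, 58 with thinned cells and 98 to 823 with a tumour left out, against 320. Between Kmt2d KO and Kmt2c KO they came to 577 by DESeq2, 521 with no low-count filter, 121 with at least 2 H2BMc UMIs, 56 with thinned cells, 4 under 10% mitochondrial counts, 4 with no endothelial, macrophage, mural or T cell gate passed (chosen after seeing the data), 1 with no stromal or immune gate passed, 0 with only the 2 groups compared, with all ungated cells or without the 5% deepest cells, and 0 to 2797 with a tumour left out, against 11. Against gated fibroblasts they came to 4087 without the library block and 3115 with thinned cells, against 6676. Thinning leaves fewer UMIs and a left-out tumour fewer samples, but the cause of these changes was not tested. The highest counts with a tumour left out between genotypes (4140, 823 and 2797) all came without Kmt2d KO 2.

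Signs turned only in differences that were not called. Snai2 in Kmt2c KO against WT was 0.18 with no stromal or immune gate passed. Between Kmt2d KO and Kmt2c KO, Cdh2 was -0.015 with at least 2 H2BMc UMIs, -0.041 with thinned cells and -0.092 to 0.15 with a tumour left out. Zeb1 there was 0.0043 without the deepest cells, 0.0041 with thinned cells and -0.19 to 0.014 with a tumour left out. Twist1 there was 0.029 with total UMI counts only, 0.00085 with only the 2 groups, 0.0028 with no stromal or immune gate passed, 0.010 with all ungated cells, 0.00011 under 10% mitochondrial counts and -0.064 to 0.056 with a tumour left out.

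Shares depend on depth. Krt8 was detected in 93.8, 74.7 and 82.6% of unthinned WT, Kmt2c KO and Kmt2d KO cells and in 76.9, 55.4 and 64.5% at 4000 UMIs. Krt8 with Vim came to 93.8, 74.6 and 82.5% unthinned and 76.9, 55.4 and 64.5% at 4000 UMIs. At these depths Krt18, Krt19, Epcam and Cdh1 could not be compared between genotypes.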

Other observations

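Epcam and Cdh1 occurred together in another kind of cell. Of the 11 kept cells with UMIs of at least 2 of Krt18, Krt19, Epcam and Cdh1, 9 held Epcam and Cdh1 without Krt18 or Krt19, and each of the 9 also held UMIs of H2-Aa, an MHC class II gene, and of Ptprc, the pan-leukocyte gene CD45. In these 9 cells H2-Aa was counted 7 to 229 times, Epcam 1 to 5 times and Cdh1 1 to 4 times, and none held H2BMc. They were chosen after their values were seen, and came from 5 of the 9 tumours.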
